A study of Mus musculus with 15 samples.

Results

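The transcripts of factors that write, copy, protect and remove DNA methylation were followed in mouse zygotes and 2-cell embryos with and without maternal Usp16. The set was named by gene symbol and holds 10 genes: Dnmt1, Uhrf1, Dnmt3a, Dnmt3b, Dnmt3l, Dppa3, Tet1, Tet2, Tet3 and Tdg. Of these 10, 8 were found among the 14392 genes of the deposited expression table, and Tet2 and Tdg were not analysed here. The table keeps genes above an FPKM (fragments scaled by transcript length and by mapped fragments) of 1 in at least 1 library, with every value under 1 set to 1, which is called the floor. Tet1 passed this filter through its 2-cell values alone, and the other 7 genes were above the floor in every library.

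The study asked what loss of USP16, an enzyme that removes ubiquitin from histone H2A, does to early embryos. RNA-seq covered 4 groups of 2 libraries each, and each library was made from 10 pooled embryos. WT embryos came from Usp16+/+ mothers, and cKO embryos from Usp16fl/fl;Gdf9-Cre mothers mated with WT males, so that the paternal Usp16 allele was intact. All mice were on a C57BL/6 background, and embryos came from mated females superovulated with PMSG and hCG. Gdf9-Cre acts in oocytes from the primordial follicle stage onward, so that the cKO oocytes grew without Usp16 and the fertilized embryo itself was heterozygous. Libraries were made by Smart-seq2, which primes on poly(A) tails, so the values describe polyadenylated transcripts. No source describes separate litters or dates for the libraries of a group, so p-values measure spread between libraries alone. This spread was pooled over the 4 groups. Since whole embryos were pooled, a lower level in each embryo and a smaller share of embryos with a transcript cannot be told apart.

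DNA methylation at CpG sites is copied at replication by DNMT1, which UHRF1 brings to newly made DNA, and is laid down in growing oocytes by DNMT3A together with its cofactor DNMT3L. After fertilization most of it is lost, in part by oxidation of 5-methylcytosine through TET3 and in part by dilution at cell division, while DPPA3 (also called STELLA) shields the maternal genome and TDG can cut out oxidized bases. Zygotes depend on transcripts stored in the egg, many of which are removed by the 2-cell stage, when the major wave of embryonic transcription begins in mice.

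Usp16 itself was examined first as a check of the genotype labels. Its FPKM was 184 and 187 in the WT zygote libraries and 16.8 and 22.0 in the cKO zygote libraries, a 9.58-fold lower mean. At the 2-cell stage it was 168.4 and 183 in WT and 167.7 and 84.8 in cKO embryos. The zygote libraries separated by genotype as labelled, whereas cKO 2-cell replicate 1 lay within 1 FPKM of a WT library. On the log2(FPKM + 1) scale the cKO zygotes differed from WT by -3.21 (standard error 0.34), with an adjusted p of 0.191 from limma with Benjamini-Hochberg adjustment over all genes. With group weights the adjusted p was 0.00342, a gained call, and with a filter at a mean FPKM of 3 it was 0.0584. It rose to 0.390 after scaling to equal sums and to 0.842 with a replicate block, also from limma. The cKO 2-cell embryos were 2.57 above cKO zygotes (adjusted p = 0.00116 from limma). Their difference from WT was -0.55 (adjusted p = 0.263), and -0.08 after median-ratio scaling (adjusted p = 0.933 from limma). It was -1.04 without cKO 2-cell replicate 1 and -0.07 without cKO 2-cell replicate 2. Without either library the spread of this group is taken from the other groups alone, so no p is given here or below. Usp16 overlaps Cct8, which lies on the opposite strand and had an FPKM between 188 and 210.1 in the 4 zygote libraries, 118 and 157 in WT 2-cell embryos, and 338 and 158 in cKO 2-cell embryos. The highest Cct8 value was in cKO 2-cell replicate 1, the library in which Usp16 was near WT. In the cKO zygotes Cct8 was at 191 and 188, with Usp16 at 16.8 and 22.0. Whether Cct8 reads enter the Usp16 value was not tested.

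Markers of the egg were present in every library. All 9 oocyte and egg markers had a value, led by Oosp1, and their summed FPKM was 10242 and 11132 in WT zygotes, 10254 and 10705 in cKO zygotes, 5994 and 4871 in WT 2-cell embryos, and 1091 and 2578 in cKO 2-cell embryos. In cKO 2-cell embryos 5 of the 9 were lower than in WT by limma and 0 were higher, beside 24.6% and 6.16% of all genes. Oosp1, the largest part of the sum, had a 2-cell mean of 4323 in WT and 1210 in cKO. The 2-cell means of Gdf9 (249 in WT, 316 in cKO), Zp3 (93.0 and 132) and Mos (4.24 and 4.42) were higher in cKO, without a call. After median-ratio scaling, with group weights, without WT 2-cell replicate 1 or without WT 2-cell replicate 2, 1 of the 9 was called lower. Of 9 markers of the 2-cell stage 7 were measured, and their sum was between 8.45 and 12.5 in zygotes, 477 and 699.6 in WT 2-cell embryos and 260.4 and 289 in cKO 2-cell embryos. Among these 7, 6 were lower in cKO 2-cell embryos and Eif1a was higher. The number called lower was 3 after median-ratio scaling or without WT 2-cell replicate 1, and 2 with group weights or without WT 2-cell replicate 2. Whether differences in stage between the genotypes account for values described below was not tested.

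Markers of cells that surround or enter the egg were followed next, and the source of their transcripts was not tested. Of 9 cumulus and granulosa markers 3 were measured, and Cyp19a1 was between 22.3 and 26.7 in zygotes and at most 1.78 in 2-cell embryos. Foxl2 and Tnfaip6 were at the floor in all zygotes and did not follow Cyp19a1. In WT 2-cell embryos Tnfaip6 was at 1.83 and 7.45 and Foxl2 at 1.55 and 1.06. In cKO 2-cell embryos Tnfaip6 was at 1 and 1.32 and Foxl2 at the floor. The summed level of these 3 genes was between 24.3 and 28.7 in the zygote libraries, 4.38 and 10.3 in WT 2-cell embryos, and 3 and 3.32 in cKO 2-cell embryos. Of 6 sperm markers 4 were measured. Prm2, the most abundant in zygotes, was between 13.5 and 20.1 there and at most 1.64 in 2-cell embryos, and Prm1 and Tnp1 were at the floor in all zygotes. Tnp1 was at 4.28 and 5.69 in WT 2-cell embryos and at 1.97 and 1 in cKO 2-cell embryos, so it did not follow Prm2. The 4 sperm markers summed to 16.5 to 23.1 in zygotes, to 7.28 and 11.4 in WT 2-cell embryos, and to 4.97 and 4 in cKO 2-cell embryos.

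The libraries were not equally alike. Over all genes, whose values depend on each other, the 2 libraries of a group had a Pearson coefficient of log2(FPKM + 1) of 0.988 (WT) and 0.992 (cKO) in zygotes and of 0.977 (WT) and 0.926 (cKO) at the 2-cell stage. The FPKM of cKO 2-cell replicate 2 summed to 770989, against 547752 to 593317 in the other 7 libraries. Fitted group weights were 2.40 in WT zygotes and 4.06 in cKO zygotes, against 0.51 in WT and 0.20 in cKO 2-cell embryos. The reported fit takes 1 spread for all groups, so its p-values between 2-cell groups rest in part on the closer zygote libraries. With group weights 0 members were called between 2-cell genotypes.

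Dppa3 was far above every other member in all libraries. It ranked between place 2 and place 9 of the 14392 genes in each library and held 0.451% to 1.20% of the summed FPKM. In WT zygotes the order of mean FPKM was Dppa3 (5981), Uhrf1 (154), Tet3 (86.8), Dnmt1 (84.0), Dnmt3l (54.6), Dnmt3a (40.7), Dnmt3b (3.92) and Tet1 (at the floor). The library ranges of Tet3 and Dnmt1 overlapped, as did those of Dnmt3l and Dnmt3a, so these neighbours were not separated. In WT 2-cell embryos Dnmt3l (54.0) stood second after Dppa3 (2715), followed by Uhrf1 (42.3), Tet3 (14.9), Dnmt3a (11.0), Dnmt1 (9.80), Dnmt3b (6.08) and Tet1 (6.04), and only the ranges of the last pair overlapped. In cKO 2-cell embryos Uhrf1 (19.0) and Dnmt3l (16.8) overlapped below Dppa3 (7331), Dnmt3a, Dnmt1, Tet1 and Tet3 followed between 9.32 and 6.50 with neighbouring ranges overlapping, and Dnmt3b (1.52) was last and separate.

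**Figure D1:**
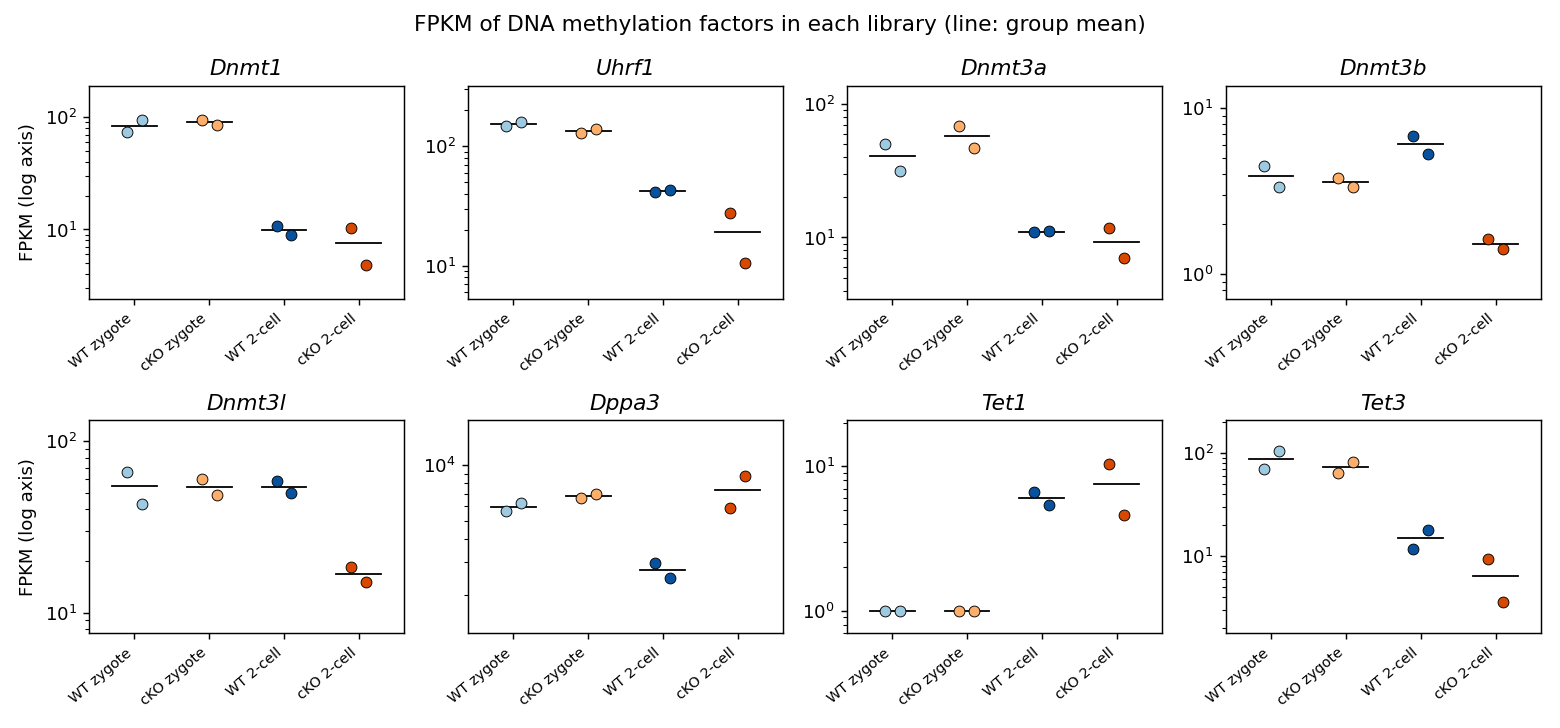
FPKM of the 8 measured genes in each library on a log axis, by group, with a line at the mean of the 2 libraries. Dnmt1, Uhrf1, Dnmt3a and Tet3 were lower in all 2-cell than in all zygote libraries, Dppa3 was between 2472 and 2958 in WT 2-cell embryos and at least 5681 in every other library, and Dnmt3b and Dnmt3l were lowest in cKO 2-cell embryos.

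Between zygotes and 2-cell embryos more of the set fell than rose. In WT embryos 5 of the 8 genes fell by limma at an adjusted p under 0.05 and 1 rose, while 15.5% of all 14392 genes fell and 34.2% rose. With 1 WT library left out, the number called lower was 1 without 2-cell replicate 1, 2 without 2-cell replicate 2 and 3 without either zygote library. The gene that rose was Tet1, whose direction is set by the filter, here and in the counts that follow for cKO embryos and fold changes. By a second rule, a group mean more than 3-fold apart, 4 were lower and 1 was higher in WT 2-cell embryos, against 8.78% and 26% of all genes. In cKO embryos 6 fell and 1 rose by limma, beside 27.1% and 24.6% of all genes, and 5 were lower and 1 higher past 3-fold, beside 19.2% and 22.8%. The median log2 fold change of the 8 genes was -1.45 in WT and -2.07 in cKO embryos, against 0.27 and 0 over all genes. Of the 14392 genes, 4423 and 4747 were at the floor in the WT zygote libraries, and 4242 and 4485 in the cKO zygote libraries. Genes at the floor in zygotes could not fall, whereas every member but Tet1 was above it in every library. The shares and medians of all genes are thus not those of genes equally free to fall.

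Between genotypes no member was called in zygotes. In cKO zygotes limma called 0 of the 8 genes lower and 0 higher than in WT, and none reached an unadjusted p under 0.05; over all genes 0% were called lower and 0.0208% higher, with 84 lower and 324 higher genes at an unadjusted p under 0.05. In zygotes the cKO pair was under the WT pair for Uhrf1 and over it for Dppa3. How many of all genes had zygote pairs apart in this way was not counted, so these separations are not read as a result. No member passed the 3-fold rule, which 0.0486% of all genes passed downward and 0.104% upward. At the 2-cell stage Dnmt3b and Dnmt3l were lower and Dppa3 was higher in cKO embryos, so that 2 of 8 were called lower beside 24.6% of all genes and 1 of 8 higher beside 6.16%. Past 3-fold, 2 of 8 were lower and 0 higher, with 13.5% and 2.84% of all genes. For 4 of the 8 genes the cKO pair was entirely under the WT pair and for 1 entirely over it, as for 43.4% and 14% of all genes. In the deposited values the share of members called lower was thus near that of all genes. After median-ratio scaling 2 of 8 were called lower and 0 higher, beside 1747 lower and 1437 higher of the 14392 genes. The log2 ratio of group means was then -1.52 for Dnmt3b, -1.21 for Dnmt3l and 1.95 for Dppa3. By the 3-fold rule this scaling thus left 0 members lower and 1 higher, and over all genes more were higher than lower. With 2 libraries against 2, an exact permutation test cannot give a two-sided p below 0.333.

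The height of 2-cell values depended on how libraries were scaled. Among 9086 genes that no 2-cell library had at the floor, the cKO to WT ratio at this stage had a median log2 of -0.31 in the deposited values. It was 0.16 after median-ratio scaling, which sets each library by its typical ratio to a geometric mean of all libraries, and -0.53 after scaling to equal sums. From WT zygotes to WT 2-cell embryos, over the 8764 genes above the floor in those libraries, the medians were 0.15, -0.18 and 0.18. Relative to the median of the 9086 genes, the log2 ratio of group means between cKO and WT 2-cell embryos was -1.69 for Dnmt3b, -1.38 for Dnmt3l, -0.89 for Tet3, -0.85 for Uhrf1, -0.06 for Dnmt1, 0.07 for Dnmt3a, 0.63 for Tet1 and 1.74 for Dppa3. Dnmt1 and Dnmt3a thus lay near the median of these genes, and after median-ratio scaling their limma differences changed sign to 0.01 and 0.17, neither called.

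Dnmt1 encodes the maintenance methyltransferase and lies on the minus strand of mm9 at chr9:20711650-20757317. Its FPKM was 74.3 and 93.7 in WT zygotes, 95.3 and 85.6 in cKO zygotes, 10.6 and 8.98 in WT 2-cell embryos, and 10.3 and 4.83 in cKO 2-cell embryos. All zygote libraries were high and all 2-cell libraries low, and the genotypes overlapped at both stages. The mean was 8.57-fold lower in WT 2-cell embryos than in WT zygotes (limma log2 fold change -2.97, standard error 0.34, adjusted p = 0.000837) and 11.9-fold lower in cKO (-3.49, standard error 0.34, adjusted p = 0.000386). Both calls were kept in all 12 alternative settings of each comparison. The genotype difference was 0.11 in zygotes and -0.41 at the 2-cell stage (standard error 0.34 each), with adjusted p-values from limma of 1 and 0.398. The 2-cell difference was -0.88 without cKO 2-cell replicate 1 and 0.07 without cKO 2-cell replicate 2. The table has 1 value per gene, so transcripts from the oocyte start of Dnmt1 are not separated from those of its somatic start.

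Uhrf1, whose protein recognizes hemimethylated DNA and recruits DNMT1, lies on the plus strand at chr17:56442744-56462909. It had an FPKM of 147 and 161 in WT zygotes, 129.7 and 139.9 in cKO zygotes, 41.2 and 43.4 in WT 2-cell embryos, and 27.4 and 10.6 in cKO 2-cell embryos. The cKO pair was under the WT pair at each stage, narrowly in zygotes, and the cKO 2-cell libraries were far apart. At the 2-cell stage 43.4% of all genes had the cKO pair under the WT pair. The decline to the 2-cell stage was 3.64-fold in WT (limma log2 fold change -1.84, standard error 0.40, adjusted p = 0.0105) and 7.11-fold in cKO embryos (-2.91, standard error 0.40, adjusted p = 0.00145). In WT the adjusted p lay between 0.0524 and 0.0813 when any 1 of the 4 WT libraries was left out, and in cKO the call was kept in all 12 settings. At the 2-cell stage the cKO mean was 2.23-fold under that of WT, but the difference of -1.26 (standard error 0.40) had an adjusted p of 0.0601 from limma. Without cKO 2-cell replicate 1 it was -1.90, and without cKO 2-cell replicate 2 it was -0.61. Over all 12 settings the adjusted p from limma reached 0.246.

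Dnmt3a, the de novo methyltransferase of growing oocytes, lies on the plus strand at chr12:3806007-3914443. Its FPKM was 50.0 and 31.4 in WT zygotes, 68.4 and 46.7 in cKO zygotes, 11.0 and 11.1 in WT 2-cell embryos, and 11.7 and 6.96 in cKO 2-cell embryos. The stages did not overlap, whereas the genotypes overlapped at each stage. Dnmt3a fell 3.69-fold in WT (limma log2 fold change -1.76, standard error 0.35, adjusted p = 0.00722) and 6.17-fold in cKO embryos (-2.52, standard error 0.35, adjusted p = 0.00145). The WT call was lost without WT 2-cell replicate 1 (adjusted p = 0.0572 from limma) or without WT 2-cell replicate 2 (adjusted p = 0.0554). Differences between genotypes were 0.50 in zygotes and -0.26 in 2-cell embryos (standard error 0.35 each), with adjusted p-values of 1 and 0.608 from limma, and the 2-cell difference was 0.08 without cKO 2-cell replicate 2. Gm10485, annotated on the opposite strand within Dnmt3a, was at most 1.29 in any library.

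Dnmt3b, a second de novo methyltransferase that is best known from the later embryo, was the lowest of the members above the floor in zygotes and lies on the plus strand at chr2:153475186-153513466. It was at 4.48 and 3.37 in WT zygotes, 3.81 and 3.35 in cKO zygotes, 6.83 and 5.33 in WT 2-cell embryos, and 1.62 and 1.43 in cKO 2-cell embryos. The zygote groups overlapped, the WT 2-cell libraries were the highest of all and the cKO 2-cell libraries the lowest. Its 2-cell mean was 6.08 ± 1.06 (WT) and 1.52 ± 0.138 (cKO), with the SD of 2 libraries, a 3.99-fold difference. On the log2 scale cKO differed from WT by -1.48 (standard error 0.22, adjusted p = 0.00561 from limma). The call was lost when each group was given its own weight (adjusted p = 0.0910) or when the 4 2-cell libraries were fitted alone (adjusted p = 0.0726), over a range of 0.00373 to 0.0910 in all 12 settings. Its WT level was 0.53 higher in 2-cell embryos than in zygotes (standard error 0.22, adjusted p = 0.0887 from limma), while in cKO embryos it fell by 0.86 (standard error 0.22, adjusted p = 0.0162 from limma). This fall was not called without cKO zygote replicate 1 (adjusted p = 0.0930 from limma), without cKO zygote replicate 2 (adjusted p = 0.0596) or with group weights (adjusted p = 0.115).

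Dnmt3l encodes the catalytically inactive partner of DNMT3A and lies on the plus strand at chr10:77504692-77526367. Its FPKM was 66.0 and 43.1 in WT zygotes, 60.0 and 48.4 in cKO zygotes, 58.4 and 49.6 in WT 2-cell embryos, and 18.4 and 15.2 in cKO 2-cell embryos. The first 3 groups overlapped, and both cKO 2-cell libraries lay far below all others. From zygotes to 2-cell embryos the mean with its SD went from 54.6 ± 16.2 to 54.0 ± 6.26 in WT and from 54.2 ± 8.16 to 16.8 ± 2.26 in cKO, with 2 libraries a group. In cKO 2-cell embryos the mean was 3.22-fold below WT (limma log2 fold change -1.63, standard error 0.27, adjusted p = 0.00788) and 3.23-fold below cKO zygotes (-1.63, standard error 0.27, adjusted p = 0.00284). The WT stage difference was 0.01 (standard error 0.27) and not called (adjusted p = 1 from limma). With group weights the adjusted p was 0.192 for the genotype difference and 0.0667 for the cKO stage difference, and the genotype difference had an adjusted p of 0.0642 with the 4 2-cell libraries alone. For the genotype difference the adjusted p ranged from 0.00565 to 0.192 over 12 settings. Aire, on the opposite strand, overlaps Dnmt3l and was between 2.23 and 5.36 in zygotes and at most 2.46 in 2-cell embryos. Smart-seq2 reads carry no strand, so reads of overlapping genes cannot be told apart.

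Dppa3 encodes the maternal factor that limits oxidation of maternal DNA and interferes with UHRF1 on chromatin, and lies on the plus strand at chr6:122576428-122580290. Its FPKM was 5681 and 6280.1 in WT zygotes, 6656 and 6984 in cKO zygotes, 2958 and 2472 in WT 2-cell embryos, and 5888 and 8774 in cKO 2-cell embryos. The WT 2-cell libraries stood below all others, and of the cKO 2-cell libraries 1 lay within the range of the zygotes and 1 above it. Its 2-cell mean was 2715 ± 344 (WT) and 7331 ± 2041 (cKO), with the SD of 2 libraries, 2.70-fold higher in cKO and under the 3-fold rule. After median-ratio scaling the log2 ratio of the means was 1.95, which is past that rule, and after scaling to equal sums it was 1.16, which is not. The value of 8774 is from cKO 2-cell replicate 2, the library with the highest FPKM sum (770989). In the deposited values the limma log2 difference was 1.41 (standard error 0.34, adjusted p = 0.0242 from limma). This call was lost after median-ratio scaling (1.89, adjusted p = 0.0914), with group weights (adjusted p = 0.135), with the 4 2-cell libraries alone (adjusted p = 0.295), and without WT 2-cell replicate 1 (1.54, adjusted p = 0.176) or WT 2-cell replicate 2 (1.28, adjusted p = 0.249). Without cKO 2-cell replicate 2, the higher of the pair, the difference was 1.12.

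In WT embryos Dppa3 fell by 1.14 on the log2 scale from zygotes to 2-cell embryos (standard error 0.34, adjusted p = 0.0308 from limma), a 2.203-fold lower mean. Leaving out WT zygote replicate 1, WT zygote replicate 2, WT 2-cell replicate 1 or WT 2-cell replicate 2 gave an adjusted p between 0.0979 and 0.283 and ended this call, as did median-ratio scaling (adjusted p = 0.113). In cKO embryos the stage difference was 0.08 (standard error 0.34, adjusted p = 0.942 from limma) and the groups overlapped. Processed copies of Dppa3 elsewhere in the genome can share reads with it, so its FPKM is uncertain to that extent.

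Tet1, a dioxygenase that oxidizes 5-methylcytosine and is prominent in pluripotent cells, lies on the minus strand at chr10:62267318-62361866. It was at the floor in all 4 zygote libraries, at 6.64 and 5.44 in WT 2-cell embryos and at 10.4 and 4.63 in cKO 2-cell embryos. Every 2-cell library was above every zygote library, and the cKO 2-cell libraries lay on either side of the WT pair. Measured against the floor, its 2-cell mean was at least 6.04-fold higher in WT and at least 7.53-fold higher in cKO embryos than in zygotes. A gene at the floor in all zygotes enters the table only if a 2-cell library is above it, so the direction is set by the filter and no p is given for this difference. Between genotypes the 2-cell difference was 0.19 (standard error 0.33, adjusted p = 0.700 from limma), and it changed sign to -0.01 after scaling to equal sums. Without cKO 2-cell replicate 1 it was -0.32, and without cKO 2-cell replicate 2 it was 0.70, so its sign rests on single libraries.

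Tet3, the dioxygenase of the egg that oxidizes 5-methylcytosine in the zygote, lies on the minus strand at chr6:83312367-83391672. Its FPKM was 70.0 and 103.6 in WT zygotes, 63.7 and 82.0 in cKO zygotes, 11.7 and 18.1 in WT 2-cell embryos, and 9.40 and 3.59 in cKO 2-cell embryos. Zygote libraries of both genotypes overlapped, and at the 2-cell stage the cKO pair was under the WT pair. The mean fell 5.84-fold in WT (limma log2 fold change -2.47, standard error 0.45, adjusted p = 0.00509) and 11.2-fold in cKO embryos (-3.41, standard error 0.45, adjusted p = 0.00120). In WT the adjusted p was 0.0566 without WT 2-cell replicate 1. The 2-cell difference between genotypes of -1.17 (standard error 0.45) had an adjusted p of 0.0998 from limma. Without cKO 2-cell replicate 1 it was -1.76, and without cKO 2-cell replicate 2 it was -0.58.

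Added together, the 4 DNMT genes had an FPKM of 195 and 172 in WT zygotes, 227 and 184 in cKO zygotes, 86.9 and 75.0 in WT 2-cell embryos, and 42.0 and 28.4 in cKO 2-cell embryos. Tet1 and Tet3 together were at 71.0 and 104.6 in WT zygotes, 64.7 and 83.0 in cKO zygotes, 18.3 and 23.5 in WT 2-cell embryos, and 19.8 and 8.22 in cKO 2-cell embryos. The DNMT sum was lowest in both cKO 2-cell libraries, and the TET sum overlapped between genotypes at that stage.

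Whether the genotype difference itself changed between stages was tested as an interaction. By limma 2 of the 8 genes, Dnmt3b and Dnmt3l, had a more negative difference at the 2-cell stage, beside 10.2% of all genes. For 0 of the 8 it was more positive, beside 1.58% of all genes. Both calls were lost after median-ratio scaling or with group weights, and in other settings given below. The interaction was 1.22 for Dppa3 (standard error 0.47, adjusted p = 0.145 from limma), and without cKO 2-cell replicate 1 its adjusted p was 0.0232. For Uhrf1 it was -1.07 (standard error 0.57, adjusted p = 0.267 from limma), and without the same library its adjusted p was 0.00559. Tet1, at the floor in all zygotes, has an interaction that only repeats its 2-cell difference.

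**Figure D2:**
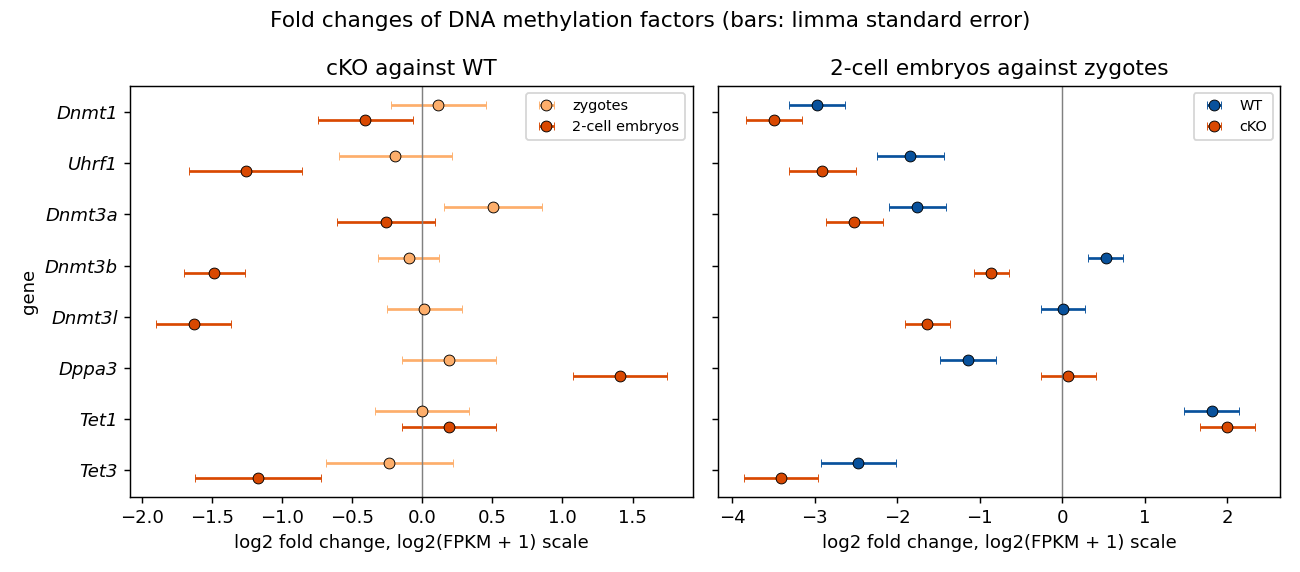
Log2 fold change of each gene on the log2(FPKM + 1) scale, with bars for the limma standard error, for cKO against WT in zygotes and 2-cell embryos (left) and for 2-cell embryos against zygotes in each genotype (right). At the 2-cell stage Dnmt3b (-1.48) and Dnmt3l (-1.63) lay below 0 and Dppa3 (1.41) above it, and Dnmt1 had the most negative stage differences in both genotypes (-2.97 and -3.49).

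Genes with the most similar profile over the 8 libraries were listed for 3 members, from a search of 7533 other genes. For Dppa3 they were Nup35 (Pearson r = 0.980), Napg (0.977) and Aimp1 (0.972). Nup35 had mean FPKM values of 249 and 248 in WT and cKO zygotes, 105.1 in WT and 307 in cKO 2-cell embryos. For Tet3 they were Serpinb1c (0.998), Mapre1 (0.996) and G3bp2 (0.995), and for Dnmt1 they were Cep55 (0.997), Dcp1a (0.996) and Gm813 (0.995). Group means of all 6 genes listed for Tet3 and Dnmt1 were lower in 2-cell embryos than in zygotes of the same genotype. This follows from how they were chosen. The libraries fall into 4 groups, so these coefficients describe group means more than independent samples.

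Partners of the set were grouped into 7 lists. In zygotes 0 genes of any list were called between genotypes by limma. At the 2-cell stage the median log2 fold change of all genes was -0.30, and limma called 24.6% of them lower and 6.16% higher. The counts of each list below stand beside those shares and were not tested against them. Among partners of maintenance methylation 2 of 8 were lower in cKO embryos and 0 higher (median -0.16), and Pcna was the most abundant. Cdca7l, a relative of the CDCA7 subunit of the HELLS remodeler, was at 8.78 and 5.40 in WT and at 1.04 and 1 in cKO 2-cell embryos (limma log2 fold change -1.97, standard error 0.30, adjusted p = 0.00633). Among TET partners and Gadd45 genes 3 of 10 were lower and 0 higher (median -0.76). Gadd45g was at 8.51 and 6.87 in WT and at the floor in both cKO libraries (-2.11, standard error 0.25, adjusted p = 0.00310 from limma), and Cxxc5 was at 4.81 and 3.24 in WT and at 1.00 and 1.26 in cKO embryos.

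Of 16 measured genes of base excision repair, which fills the gap left when an oxidized base is cut out, 4 were lower and 1 was higher (median -0.51), close to the 24.6% and 6.16% of all genes. Apex2 was at 21.1 and 24.0 in WT and at 6.04 and 6.85 in cKO 2-cell embryos, and the DNA ligase Lig1 was at 9.24 and 8.02 against 2.57 and 1.84. The uracil glycosylase Smug1 was at 3.69 and 5.21 in WT and at 1.44 and 1 in cKO embryos. None of these 3 pairs overlapped, with adjusted p-values of 0.00765, 0.00543 and 0.0127 from limma. Writers and erasers of histone marks that guide DNMT3 proteins were lower in 2 and higher in 0 of 8 (median -0.78). After median-ratio scaling or with group weights 0 of these 8 were called lower. None of 5 methyl-CpG readers (median 0) and none of 8 genes of imprint protection (median 0.23) was called by limma at the 2-cell stage between genotypes. After median-ratio scaling 1 gene of imprint protection was called higher.

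Genes that supply methyl groups were called in both directions, 5 lower and 2 higher of 18 (median -0.04), beside 24.6% and 6.16% of all genes. After median-ratio scaling 2 were called lower and 4 higher, and with group weights 2 in each direction. Mat2a, the enzyme that makes S-adenosylmethionine, was at 94.4 and 115 in WT and at 444 and 307 in cKO 2-cell embryos (limma log2 fold change 1.81, standard error 0.24, adjusted p = 0.00443). Bhmt, which remethylates homocysteine with betaine, was at 2.15 and 4.42 in WT and at 37.5 and 28.0 in cKO 2-cell embryos (3.02, standard error 0.31, adjusted p = 0.00228 from limma) and at the floor in all zygotes. Mthfd2 and Shmt2, enzymes of mitochondrial folate metabolism, were lower. Mthfd2 was at 122 and 123 in WT and at 24.0 and 22.9 in cKO 2-cell embryos (-2.33, standard error 0.16, adjusted p = 0.000936 from limma), and Shmt2 was at 27.8 and 26.1 against 6.70 and 1.02 (-2.83, standard error 0.58, adjusted p = 0.0155 from limma). The Shmt2 call was lost without WT 2-cell replicate 1 (adjusted p = 0.104) or WT 2-cell replicate 2 (adjusted p = 0.0987). Of the 10 partner genes that passed both rules between 2-cell genotypes, all lost their call when the 4 2-cell libraries were fitted alone, and 6 of them lost it with group weights.

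Promoter sequences, 250 bases before to 50 after a transcription start, were found for 7 of the 8 measured genes in a RefSeq table of 32851 promoters. Those of Dnmt3b and Dnmt3l are shown because these were the members lower in cKO 2-cell embryos, with every CpG (the letters CG, which read the same on both strands) in capitals. The Dnmt3b window at chr2:153474935-153475234 (mm9, plus strand) held 30 CG, and 89.4% of all promoters in the table held as many or fewer. The 3 Dnmt3l windows, at chr10:77504782-77505081, chr10:77512337-77512636 and chr10:77517830-77518129 (mm9, plus strand), held 6, 4 and 3 CG, with shares of 47.9%, 38% and 31.4%. The median over all promoters was 7. The pair called lower thus had starts of unlike CpG content, and the FPKM does not tell which Dnmt3l start was used.
Dnmt3b: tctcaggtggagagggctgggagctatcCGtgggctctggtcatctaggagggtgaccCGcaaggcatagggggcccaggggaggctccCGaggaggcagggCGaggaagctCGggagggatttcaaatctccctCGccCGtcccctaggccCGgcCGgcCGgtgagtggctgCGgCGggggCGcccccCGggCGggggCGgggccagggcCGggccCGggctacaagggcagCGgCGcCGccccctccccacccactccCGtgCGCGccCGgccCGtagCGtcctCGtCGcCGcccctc
Dnmt3l, upstream start: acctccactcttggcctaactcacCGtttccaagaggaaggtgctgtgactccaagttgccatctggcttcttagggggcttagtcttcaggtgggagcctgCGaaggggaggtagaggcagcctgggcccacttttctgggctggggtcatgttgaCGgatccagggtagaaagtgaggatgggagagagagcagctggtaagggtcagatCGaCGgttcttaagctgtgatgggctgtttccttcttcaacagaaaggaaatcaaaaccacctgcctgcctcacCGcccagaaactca
Dnmt3l, middle start: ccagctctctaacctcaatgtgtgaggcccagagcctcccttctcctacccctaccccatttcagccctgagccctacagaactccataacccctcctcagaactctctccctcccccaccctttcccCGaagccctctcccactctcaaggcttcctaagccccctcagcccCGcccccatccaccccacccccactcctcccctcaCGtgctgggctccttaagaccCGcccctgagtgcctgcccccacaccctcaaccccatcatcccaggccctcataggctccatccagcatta
Dnmt3l, downstream start: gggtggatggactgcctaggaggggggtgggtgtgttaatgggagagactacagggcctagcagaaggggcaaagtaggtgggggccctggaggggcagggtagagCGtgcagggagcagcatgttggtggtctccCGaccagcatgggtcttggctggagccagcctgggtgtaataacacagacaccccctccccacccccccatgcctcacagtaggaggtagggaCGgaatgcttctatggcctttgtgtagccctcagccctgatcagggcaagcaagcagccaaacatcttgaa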

How the data were processed

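Trimmed reads were mapped by the authors to mm9 (TopHat 2.1.1) and turned into FPKM (Cufflinks 2.2.1), and the deposited table gives 1 such FPKM value per gene and library. Their methods call these values normalized without naming a further step, and the gene annotation is not given in the sources used here. The values carry no read counts, so depth is unknown and precision rests on 2 libraries a group. ChIP-seq libraries were not used here. Groups came from the sample labels.

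Values were tested as log2(FPKM + 1) with limma 3.58.1 in R 4.3.3, with a trend in the prior and 4 group means in 1 model, which leaves 4 residual degrees of freedom, and p-values were adjusted by Benjamini-Hochberg over 14392 genes at 0.05. Fold changes on this scale understate those of low genes. A second rule took group means more than 3-fold apart, since the study used such a threshold without a test. The fit was tested on simulated data. Tables and figures were made in Python 3.11.15 (numpy 2.4.6, pandas 2.3.3, matplotlib 3.10.9). Alternatives covered the pseudocount, a filter at a mean FPKM of 3, scaling, group weights, the libraries of a comparison alone, a replicate block and each library left out. Scaling to equal sums and a crossed block were added after seeing the data.

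Named genes were the members, Usp16, in each wider list the genes past both rules (at most 4 per direction) and the most abundant gene, and the 3 genes most like each of Dppa3, Tet3 and Dnmt1 where some group mean reached an FPKM of 10. Other genes were named because they overlap a member or are markers. Members and lists were chosen with earlier results of these data known. Gene coordinates are from GENCODE M1 on mm9. Promoters are from RefSeq on GRCm38.p6, placed on mm9 by an exact match of the whole sequence that was found once each. Protein sequences were planned for and not analysed here.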

Additional observations from a re-analysis of the deposited data

Results flagged for a closer look

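Of the 8 members and Usp16, 3 genes had a genotype difference that itself differed between the stages, as tested with limma by the interaction between genotype and stage. Over all 14392 genes the interaction was called negative for 10.2% and positive for 1.58%, so such a call is not rare in these data. The interaction of Dnmt3b was -1.38 on the log2 scale (standard error 0.30, adjusted p = 0.0405 from limma), and its genotype difference was -0.10 in zygotes and -1.48 in 2-cell embryos. It lost its call after median-ratio scaling (adjusted p = 0.0635), with group weights (0.127) and without WT zygote replicate 1 (0.0931), WT zygote replicate 2 (0.135), cKO zygote replicate 1 (0.162), cKO zygote replicate 2 (0.128) or WT 2-cell replicate 1 (0.0526).

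The interaction of Dnmt3l was -1.64 (standard error 0.38, adjusted p = 0.0442 from limma), and the genotype difference went from 0.01 to -1.63. Median-ratio scaling (0.0866) and group weights (0.216) ended the call. Leaving out 1 library kept the call only for cKO 2-cell replicate 1, and the adjusted p without another library lay between 0.0645 and 0.172. For Usp16 the interaction was 2.65 (standard error 0.48, adjusted p = 0.0251 from limma), from -3.21 in zygotes to -0.55 in 2-cell embryos. Without 1 zygote library or 1 WT 2-cell library its adjusted p was between 0.0667 and 0.126, and it was 0.0597 after scaling to equal sums and 0.0522 with group weights. What sets these differences between stages was not tested.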

How the results depend on the processing

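With 2 libraries a group, spread is estimated from 4 residual degrees of freedom, and read depth is unknown, so no counting interval can be given for low genes such as Dnmt3b and Tet1. Litter and day of collection are not given and cannot be told apart from genotype or stage. Over 40 member results, 504 alternative values were computed: 427 kept direction and side of the threshold, 46 lost their call, 11 gained one and 20 changed sign, all of the last uncalled in the reported fit. Of the 427, 12 belong to the Tet1 genotype difference in zygotes, which is 0 because of the floor. Another 11 in each genotype belong to the Tet1 stage difference, whose direction is set by the filter. These values say nothing about stability. Except where said, the cause of a change was not tested. Scaling to equal sums and the crossed block were added after seeing the data.

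Member counts moved as follows. For cKO against WT 2-cell embryos limma called 2 lower and 1 higher. The 4 libraries alone, which leave fewer degrees of freedom and take the spread from 2-cell libraries only, gave 0 and 0. Group weights gave 0 and 0, and median-ratio scaling gave 0 higher. Leaving out 1 library gave 2 to 5 lower and 0 to 2 higher. For WT stages (5 lower, 1 higher) leaving out 1 library gave 1 to 3 lower and 0 to 1 higher. For cKO stages (6 lower, 1 higher) the libraries alone gave 0 higher. For the interaction (2 lower, 0 higher) median-ratio scaling and group weights each gave 0 lower, and leaving out 1 library gave 0 to 3 lower and 0 to 1 higher. Past 3-fold at the 2-cell stage (2 lower, 0 higher), a 2-fold threshold gave 4 lower and 1 higher, every library past 3-fold 1 lower, median-ratio scaling 0 lower and 1 higher, an added pseudocount of 1 gave 1 lower, and leaving out 1 library gave 1 to 4 lower and 0 to 1 higher. A library left without a partner is assumed to vary like the other groups.

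Sign changes were these log2 fold changes. Median-ratio scaling: between 2-cell genotypes Dnmt1 0.0135 and Dnmt3a 0.17, between zygote genotypes Dnmt3l -0.0123, and between WT stages Dnmt3l -0.32. Equal sums: between zygote genotypes Dnmt3l -0.0151, between 2-cell genotypes and for the interaction Tet1 -0.0130, and between cKO stages Dppa3 -0.12. With 1 library left out, the zygote genotype difference ranged from -0.0523 to 0.28 for Dnmt1, -0.26 to 0.0663 for Dnmt3b, -0.29 to 0.32 for Dnmt3l and -0.51 to 0.0455 for Tet3. The 2-cell difference ranged from -0.88 to 0.0711 for Dnmt1, -0.60 to 0.0760 for Dnmt3a and -0.32 to 0.70 for Tet1, whose interaction had the same range. Between stages the range was -0.29 to 0.31 for Dnmt3l in WT and -0.21 to 0.36 for Dppa3 in cKO.

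Counts over all genes also moved. For zygotes limma called 0 lower and 3 higher, and 3 and 9 after median-ratio scaling, 1 and 7 with the libraries alone, 4 and 24 with group weights, and 1 to 5 higher with 1 library left out. For 2-cell genotypes (3538 lower, 887 higher) median-ratio scaling gave 1747 and 1437, equal sums 551 higher, the libraries alone 0 and 0 (3416 and 819 at an unadjusted p under 0.05), group weights 854 and 120, and 1 library left out 426 to 1715 higher. For the interaction (1474 lower, 227 higher) median-ratio scaling gave 657 and 449, group weights 655 and 87, and 1 library left out 1 to 3517 and 0 to 1100. Past 3-fold, zygotes (7 lower, 15 higher) gave 36 and 115 at 2-fold, 2 and 8 with every library past 3-fold, and 5 to 19 and 12 to 39 with 1 library left out. The 2-cell genotypes (1940 lower, 409 higher) gave 4120 and 1259 at 2-fold, 982 and 111 with every library, 905 and 993 after median-ratio scaling, 1156 lower with a pseudocount of 1, 246 higher after equal sums, and 386 to 658 higher with 1 library left out. WT stages (1263 lower) gave 2246 lower at 2-fold and 835 with every library. Over the 73 measured partner genes, limma called 16 lower and 3 higher between 2-cell genotypes, 10 and 8 after median-ratio scaling, 3 and 2 with group weights, 0 and 0 with the libraries alone, and 11 to 28 and 2 to 13 with 1 library left out. For both the egg and the 2-cell markers the libraries alone gave 0 and 0.

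Libraries of different groups share only a replicate number. Deviations of same-numbered libraries correlated at 0.497 between zygote groups and -0.239 between 2-cell groups, and the replicate block called 2 members lower and 1 higher between 2-cell genotypes, 4 members lower between WT stages (without Dppa3), 1 gene higher between zygote genotypes and 117 genes higher for the interaction. The crossed replicate block called 4 members lower between 2-cell genotypes, 0 lower for the interaction and 1 gene higher between zygote genotypes.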

Other observations

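The partner lists also held genes called between stages. A gene that WT zygotes had at the floor could not fall, which holds for some of the genes counted as higher below. From WT zygotes to WT 2-cell embryos, where the median of all genes was 0.27 on the log2 scale and limma called 34.2% higher and 15.5% lower, 6 of 10 TET partners and Gadd45 genes were higher and 3 lower by limma (median 1.05), and 2 of the 6, Cxxc5 and Idh2, were at the floor in WT zygotes. Gadd45b, linked to demethylation and stress responses, was at 3.19 and 1.89 in WT zygotes and at 145.5 and 146 in WT 2-cell embryos (limma log2 fold change 5.40, standard error 0.24, adjusted p = 8.65e-05), and at 65.2 and 55.4 in cKO 2-cell embryos. Elp3 fell from 18.4 and 12.2 to 1.00 and 1.81. Of 18 genes of methyl donor supply 9 were higher and 2 lower (median 0.52), and Mat2b, the most abundant, was at 1495 and 1254 in WT zygotes and at 401 and 407 in WT 2-cell embryos.

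Among base excision genes 5 of 16 fell and 4 rose in WT (median 0.25). Neil3, a glycosylase, was the most abundant of them in every zygote library, at 282 and 258 in WT and at 269.8 and 294 in cKO, and was at 10.6 and 14.2 in WT and 9.27 and 7.89 in cKO 2-cell embryos. Zfp57, the zinc finger protein that keeps methylation at imprints, was at 1325 and 1135 in WT zygotes, 1369 and 1106 in cKO zygotes, 125 and 140.2 in WT 2-cell embryos, and 179 and 97.0 in cKO 2-cell embryos. It fell by 3.20 in WT (standard error 0.33, adjusted p = 0.000564 from limma), while its genotypes overlapped at both stages. Uhrf2, a paralog of Uhrf1, was at the floor in all zygotes, at 7.21 and 11.3 in WT 2-cell embryos and at 3.14 and 3.16 in cKO 2-cell embryos.

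The other lists had these counts between WT stages, beside the same shares of all genes. Partners of maintenance methylation had 1 of 8 lower and 2 higher (Uhrf2 from the floor), methyl-CpG readers 1 of 5 lower and 0 higher, genes of imprint protection 2 of 8 in each direction (Zfp42 higher from the floor), and histone mark genes that guide DNMT3 proteins 2 of 8 in each direction.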
